A study of Mus musculus with 50 samples.

Results

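The 24 mammary gland tumors described here are the 12 with the highest and the 12 with the lowest RPKM of Cdh1, the gene of E-cadherin, among 49 ranked tumors of a series of 50. The tumors were chosen by Cdh1 alone and irrespective of treatment; the tumor insulin_13 was left out before ranking because salivary gland genes dominated it. RPKM is the number of reads of a gene per kilobase of its length, scaled for the size of the library. The sides are called Cdh1-high and Cdh1-low below, and the 25 tumors between them are called the middle tumors. Because Cdh1 defined the sides, its own difference between them is a description and received no test.

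All tumors arose in female p53R270H/+WAPCre mice, which carry 1 mutant p53 allele that Cre, under the promoter of the milk protein gene Wap, switches on in mammary epithelium. From an age of 8 weeks the mice were injected subcutaneously every other day with vehicle, insulin, the insulin analogues glargine or X10, or IGF1, and each treatment gave 10 of the 50 tumors. The sample titles call the vehicle tumors untreated. Tumors were taken at 1 cm3, 24 h after the last injection, and the study had picked tumors of an EMT-like histology, which limits the series as a model of epithelial tumors. Tumors are named by treatment and the number in their title, as in vehicle_174. The labels do not state that each tumor came from a separate mouse, so that the p-values measure the spread between tumors.

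E-cadherin is the adhesion protein of the adherens junction and holds neighbouring epithelial cells together. Tight junctions made of claudins and occludin seal the space between these cells, desmosomes anchor their keratin filaments, and the Grainyhead-like and Elf factors keep their genes active. In an epithelial to mesenchymal transition (EMT), the repressors Snai1, Snai2, Zeb1, Zeb2 and Twist1 are known to lower E-cadherin, in part through E-box sequences in promoters, while vimentin and N-cadherin rise.

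Cdh1 (chr8:106603351-106670246, plus strand, GRCm38) lay between 12.2 and 106 RPKM in the Cdh1-high tumors, with a median of 28.0. In the Cdh1-low tumors it lay between 0.993 and 3.09 RPKM, with a median of 1.98, and in the middle tumors between 3.56 and 10.7. The tumors next to the limits differed little, with glargine_69 at 12.157 just inside and insulin_26 at 10.727 just outside the high side. On the low side, IGF1_143 at 3.088 was just inside and insulin_37 at 3.559 just outside. Within the high side there was a gap. Vehicle_174 (106 RPKM), vehicle_182 (56.4), vehicle_195 (52.0), X10_105 (49.5), X10_111 (41.1) and glargine_63 (35.0) stood above the other 6, which started with insulin_21 at 21.0. This split of the high side into its 6 highest and its other 6 tumors was made after the values were seen.

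**Figure D1:**
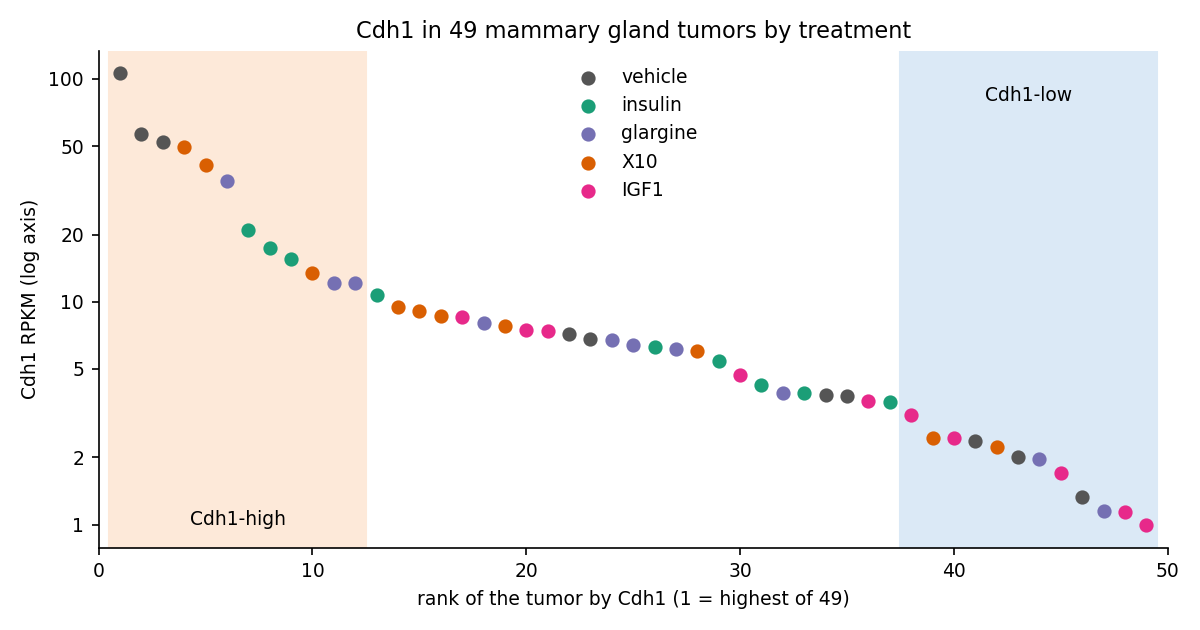
Cdh1 RPKM on a log axis against the rank of each of 49 tumors, with 1 point per tumor coloured by treatment and the Cdh1-high and Cdh1-low sides shaded. The 6 highest tumors sit at 35.0 RPKM or above, the other 6 of the high side between 12.2 and 21.0, and no IGF1 tumor is on the high side.

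The high side held 3 vehicle, 3 insulin, 3 glargine and 3 X10 tumors and no IGF1 tumor. The low side held 5 IGF1, 3 vehicle, 2 glargine and 2 X10 tumors and no insulin tumor. The treatments did not differ between the sides past the threshold (chi-square 8.4, permutation test with 100000 shuffles, two-sided, p = 0.0904). With 16 tumors on each side the same test gave p = 0.0283, and with 8 it gave p = 0.308. By treatment, the median of Cdh1 was 8.85 RPKM in X10, 6.56 in glargine, 6.29 in insulin (9 tumors), 5.30 in vehicle and 3.33 in IGF1 tumors. The ranges of neighbouring treatments in this order overlapped. The highest IGF1 tumor had 8.59 RPKM, while the lowest insulin tumor had 3.56.

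Of 76 tested members of epithelial gene lists, 16 were higher in the Cdh1-high tumors, among them Epcam, the claudins Cldn3 and Cldn4, the keratin Krt18 and the tricellular junction protein Lsr, and the EMT factor Twist1 was lower. Of 16732 genes tested with limma, 63 were higher in the Cdh1-high tumors, or 0.377%, and 3 were lower, or 0.0179%, at a Benjamini-Hochberg adjusted p under 0.05. Of the higher genes, 7 reached the minimum mean of 0.5 RPKM for testing only through the high side. They were Mir146b, Fam179a, Acox2, Ocln, Ripk4, Marveld2 and Ncmap, and their differences are a description. The 63 and the counts drawn from it below include them unless stated otherwise. Without adjustment, 6.46% of genes were higher and 3.6% lower at p under 0.05. The median difference over all tested genes was −0.01 on the log2 scale. Differences are given as Cdh1-high minus Cdh1-low in log2(RPKM + 0.5), which understates the change of low genes. In tumor tissue, fewer cells of a type and less RNA per cell cannot be told apart. Only Fam46b had no overlap between the sides (0.00598% of genes), at 0.735 RPKM or more in the high and 0.695 or less in the low tumors; it was picked out after its values were seen.

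The count rested on few tumors. Without the 6 highest tumors no gene passed, although 4.85% of genes were under an unadjusted p of 0.05, and without the other 6 of the high side 463 genes were higher and 88 lower. Leaving out 1 tumor at a time gave between 18 and 181 genes. The count was 18 to 32 without any 1 of vehicle_174, vehicle_182, vehicle_195, vehicle_162, vehicle_189, vehicle_197, X10_105, X10_107, X10_116, glargine_67, glargine_73, IGF1_132, IGF1_143 or IGF1_160, and 35, 41 and 42 without IGF1_124, glargine_63 and X10_111. It was 106, 138, 176 and 181 without insulin_21, insulin_18, insulin_14 and X10_115. In each of these 24 fits 16 genes were called, among them Epcam, Eya2, Cdcp1, Chmp4c, Sh2d1b1, Krt18, Cldn3, Lsr, Mir146b, 2010107G23Rik, Mpzl2, 1600029D21Rik, Ptpn3, Mpzl3 and Twist1. Of these 16, Mir146b was tested only through its values in the high side, so that its calls are a description. The other 50 of the 66 called genes lost the call in at least 1 of these fits, and 37 of them in more than 12 of the 24. Library size was also lower on the high side, with a median of 38.9 against 42.1 M reads, and with library size in the fit 217 genes were higher and 24 lower.

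Epcam, an adhesion protein of epithelial cells (chr17:87635979-87651129, plus strand), had the smallest p of all genes. Its RPKM in the high tumors, in order of Cdh1, was 302, 243, 152, 130, 109 and 75.6 in the 6 highest and 12.6, 18.9, 3.60, 8.66, 45.2 and 53.5 in the other 6. In the low tumors it lay between 0.529 and 5.67, with a median of 2.52. All high tumors but insulin_14 were above every low tumor. The difference was 4.26 (SE 0.56, n = 12 per side, limma adjusted p = 0.000983), and Epcam also had the highest Spearman's rho with Cdh1 over the 49 tumors.

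The tight junction list had the largest share of higher genes among the epithelial lists, with 9 of 14 tested members higher and none lower. These 9 include Ocln and Marveld2, which were tested only through their values in the high side. Cldn3 had between 0.942 and 518 RPKM in the high tumors (median 28.4) and between 0.016 and 2.11 in the low tumors (median 0.974). Only insulin_14 and X10_115 of the high side were within the range of the low side. Its difference was 3.97 (SE 0.66, adjusted p = 0.00677). Cldn4 had 0.287 to 502 RPKM in the high tumors (median 12.3) and 0.05 to 1.63 in the low tumors (median 0.534), a difference of 3.75 (SE 0.75, adjusted p = 0.0244). The same pair, insulin_14 and X10_115, overlapped with the low side. Lsr had 2.37 to 75.8 RPKM in the high tumors (median 15.9) and 0.722 to 4.68 in the low tumors (median 1.93), and its difference was 2.46 (SE 0.42, adjusted p = 0.00803). Marveld3, of the tight junction membrane, differed by 2.01 (SE 0.45, adjusted p = 0.0433), and its call was lost in 20 of the 24 fits without 1 tumor. Other members called included F11r and Cgn, with differences of 1.38 and 1.71. Their calls were lost in 10 and 15 of the 24 fits, and that of Cldn4 in 6. Ocln and Marveld2 also had an adjusted p under 0.05, but with means of 0.280 and 0.494 RPKM outside the high side they passed the minimum of 0.5 only through the tumors where they were high, so that their differences of 1.70 and 1.596 are a description. Cldn7 had a difference of 3.17 that did not pass (SE 0.79, adjusted p = 0.0630), with 24.5 to 272 RPKM in the 6 highest tumors and 0.072 to 8.02 in the other 6. The scaffold gene Tjp1 had a difference of −0.17 (adjusted p = 0.926).

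Over the 9 epithelial lists together, 76 of 86 distinct members were expressed enough to be tested. Of these, 16 were higher, or 21.1% against 0.377% of all genes, and 0 were lower; 62 were higher at an unadjusted p under 0.05. Of the 76, 8 passed the minimum of 0.5 RPKM only through the high side, and 14 of the other 68 were higher. The median difference was 1.61, and 74 of the 76 differences were positive. In the adherens junction list, Epcam was the 1 of 10 members called, and the catenins that bind E-cadherin did not pass, with differences of 0.18 for Ctnna1, −0.26 for Ctnnb1 and 0.27 for Ctnnd1. Among desmosomal genes 1 of 10 was higher, Dsg2, a desmosomal cadherin, with 0.345 to 37.1 RPKM in the high tumors (median 4.77) against 0.067 to 1.74 (median 0.321). Its difference was 2.33 (SE 0.53, adjusted p = 0.0439). The polarity list had 1 of 9 members higher, Inadl, a scaffold of the Crumbs complex (1.68, SE 0.37, adjusted p = 0.0417). The epithelial protease list had 1 of 7 higher, St14, the membrane protease matriptase, with 1.30 to 143.4 RPKM in the high tumors (median 19.2) and 1.17 to 3.40 in the low tumors (median 1.78). Its difference was 2.54 (SE 0.56, adjusted p = 0.0417). The surface protein Cdcp1 was the 1 of 6 called in its list, with a difference of 2.76 (SE 0.43, adjusted p = 0.00535). Leaving out 1 tumor ended the call of Dsg2 and of St14 in 18 of 24 fits and that of Inadl in 17, while Cdcp1 was called in every one.

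Keratin 18, the partner of keratin 8 in simple epithelium, was the 1 of 9 keratins called. Krt18 had 42.2 to 907 RPKM in the high tumors (median 169) and 2.10 to 74.95 in the low tumors (median 20.9), a difference of 3.18 (SE 0.53, adjusted p = 0.00677). In the low side, vehicle_189 and X10_107 exceeded glargine_69, X10_115 and insulin_21 of the high side. Krt8 had 73.1 to 1616 RPKM in the high tumors (median 209) and 2.39 to 260 in the low tumors (median 94.1), and its difference of 2.39 did not pass (SE 0.69, adjusted p = 0.117). Keratin 8 RNA was detected in every tumor of both sides.

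None of the 8 tested epithelial transcription factors was called, and 1 of 3 splicing factors was, Rbm47 (0.99, SE 0.22, adjusted p = 0.0417), which lost its call in 18 of the 24 fits without 1 tumor. Grhl2, a Grainyhead-like activator of junction genes, had 7.45 to 18.8 RPKM in the 6 highest tumors, 0.115 to 3.47 in the other 6 and 0.135 to 1.82 in the low tumors. Its difference was 2.13 (SE 0.53, adjusted p = 0.0619). Esrp1, an epithelial splicing factor, had 11.3 to 27.8 RPKM in the 6 highest, 0.051 to 4.03 in the other 6 and 0.059 to 0.766 in the low tumors, with a difference of 2.69 (SE 0.63, adjusted p = 0.0567). Elf3 differed by 2.45 (adjusted p = 0.0619). For these genes the 6 highest tumors stood clear of all the rest, while the other 6 ran from the level of the low tumors upward. The genes of the miR-200 family, which restrain Zeb1 and Zeb2, were all under the minimum of 0.5 RPKM and were not tested.

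**Figure D2:**
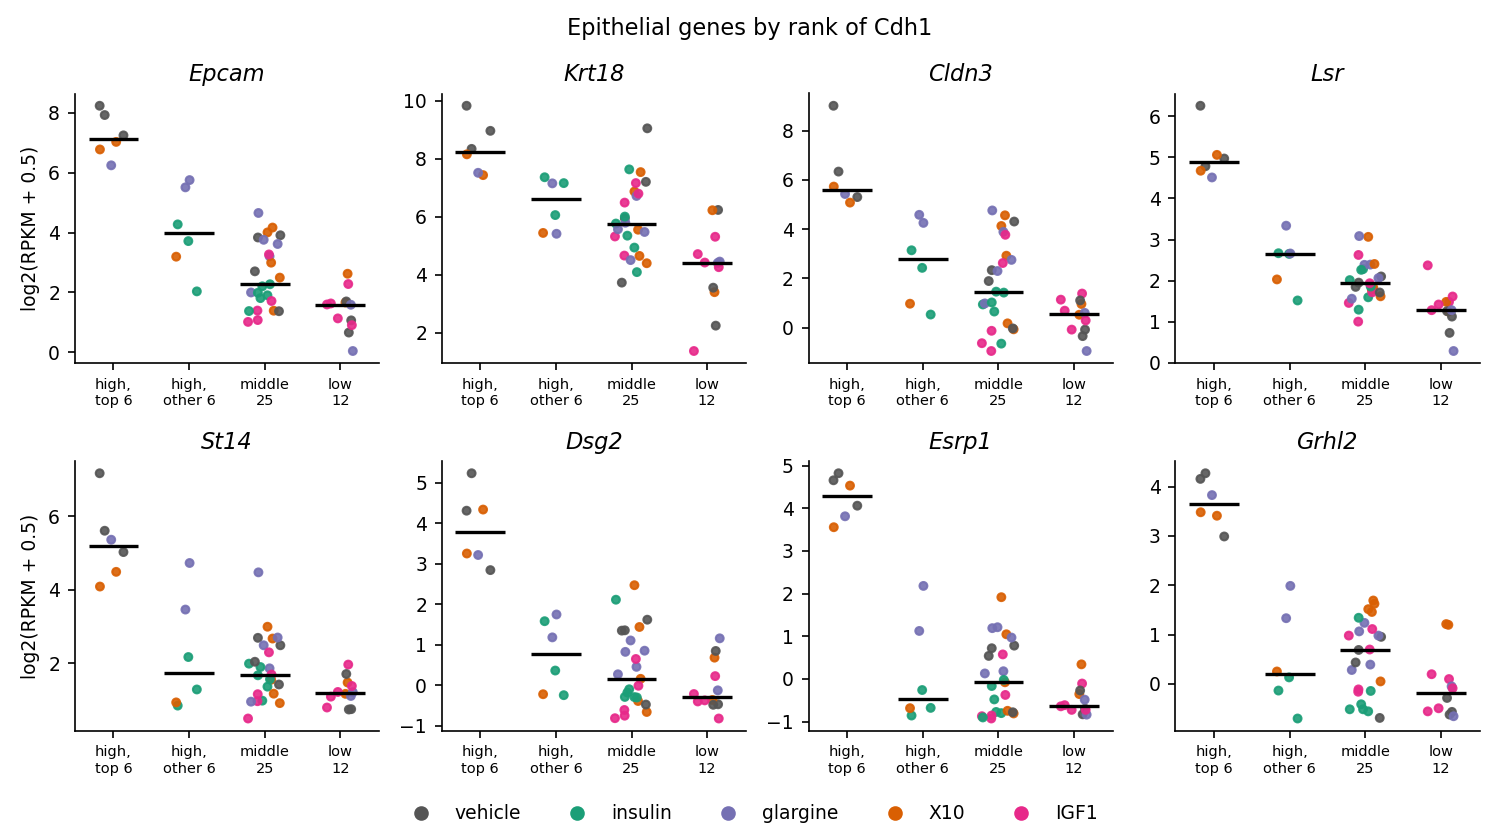
log2(RPKM + 0.5) of 8 epithelial genes in the 6 highest tumors, the other 6 of the high side, the 25 middle and the 12 low tumors, with 1 point per tumor coloured by treatment and a black line at the median. The 6 highest tumors lie above all the rest for Epcam, Cldn3, Lsr, Dsg2, Esrp1 and Grhl2, but not for Krt18, which reaches 529 RPKM in a middle tumor, or St14, which reaches 26.0 in the other 6; Epcam medians are 141, 15.7, 4.33 and 2.52 RPKM from left to right.

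The promoters of 4 of these genes are shown because EMT repressors such as Snai1 and Zeb1 are known to bind the E-box form CACCTG. Binding by these factors or by Twist1 was not measured. They are the 250 bases before the transcript start, 5′ to 3′ on the strand of the gene, from RefSeq (GRCm38.p6), and capitals mark CACCTG or its reverse complement CAGGTG. They lie at chr17:87635729-87635978 (plus strand) for Epcam, chr5:134946935-134947184 (minus) for Cldn4, chr15:102027966-102028215 (plus) for Krt18 and chr7:30973470-30973719 (minus) for Lsr.
Epcam: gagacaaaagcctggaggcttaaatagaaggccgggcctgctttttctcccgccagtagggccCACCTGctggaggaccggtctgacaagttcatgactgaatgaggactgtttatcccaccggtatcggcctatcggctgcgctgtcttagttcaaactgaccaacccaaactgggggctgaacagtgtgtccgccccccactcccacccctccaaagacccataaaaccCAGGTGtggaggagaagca
Cldn4: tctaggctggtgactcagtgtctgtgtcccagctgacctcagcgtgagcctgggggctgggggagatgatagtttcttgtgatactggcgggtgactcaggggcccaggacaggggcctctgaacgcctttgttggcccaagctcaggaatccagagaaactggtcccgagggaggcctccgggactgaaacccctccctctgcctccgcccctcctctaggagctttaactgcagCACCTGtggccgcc
Krt18: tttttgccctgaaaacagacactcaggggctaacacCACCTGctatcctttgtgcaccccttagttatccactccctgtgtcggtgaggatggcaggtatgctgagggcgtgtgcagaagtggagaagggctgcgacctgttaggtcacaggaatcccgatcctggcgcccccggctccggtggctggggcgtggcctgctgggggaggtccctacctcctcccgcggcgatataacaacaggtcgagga
Lsr: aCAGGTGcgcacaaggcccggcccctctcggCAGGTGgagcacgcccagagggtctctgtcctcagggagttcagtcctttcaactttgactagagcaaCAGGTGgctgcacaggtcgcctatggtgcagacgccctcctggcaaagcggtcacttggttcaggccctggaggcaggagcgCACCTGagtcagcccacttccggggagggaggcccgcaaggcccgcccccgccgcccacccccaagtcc
An E-box of Epcam begins 19 bases before the start and another lies farther upstream, those of Lsr 249, 219, 151 and 69 bases before it, that of Krt18 214 and that of Cldn4 14 bases before it. The RefSeq windows used for counting also held 50 bases after the start, where Cldn3 and Cldn4 had an E-box each. All 4 promoters shown held an E-box before the start, so they do not stand for the higher genes in general. Cldn3 had none before its start. Cdh1, Esrp1 and Grhl2 had no RefSeq promoter window at hand and were neither shown nor searched.

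Of the 63 higher genes, 40 had a promoter window of 300 bases in the RefSeq table, and 25 of these (62.5%) held a CACCTG on either strand. The share was 22.6% of all 27025 genes in the table and 20.8% of the 10404 tested genes. Counted by window, 30 of 56 (53.6%) held it, against 20.2% of all windows of that length. The Grainyhead-like motif AACCGGTT, which is its own reverse complement, was in 0 of the 56 windows and in 0.146% of all. At that share 56 windows would mostly hold none, so the 0 is no result, and other forms of the motif were not searched. Both strands were searched, and the motifs cannot overlap each other. These are matches of letters, with no measure of binding, and base composition was not compared between the sets.

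Among 13 tested EMT transcription factors, 1 was lower and none higher, against 0.0179% and 0.377% of all genes. At an unadjusted p under 0.05, 4 were lower and 1 higher, against 3.6% and 6.46% of all genes. Twist1 (chr12:33957671-33959829, plus strand), a helix-loop-helix factor of mesenchyme, had 13.1, 16.2, 31.9, 14.1, 14.6 and 20.5 RPKM in the 6 highest tumors and 12.5, 14.4, 9.61, 24.6, 22.2 and 22.0 in the other 6. In the low tumors it lay between 19.7 and 73.5, with a median of 32.9. Every high tumor was under the median of the low tumors, although 5 of the 12 exceeded the lowest of them, IGF1_158. The difference was −1.02 (SE 0.18, limma adjusted p = 0.0133), and it was −0.98 in the 6 highest and −1.06 in the other 6 tumors. The middle tumors had a median of 31.3 RPKM, and in them the slope of Twist1 on log2 Cdh1 was −0.04 (unadjusted p = 0.919).

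The other EMT factors did not pass. Zeb1 had 6.94 to 72.8 RPKM in the high tumors (median 51.6) and 31.8 to 110.7 in the low tumors (median 73.1), a difference of −0.82 (SE 0.29, adjusted p = 0.254). The lowest value was that of vehicle_174, which also had the highest Cdh1. Zeb2, Snai1 and Snai2 had differences of −0.26, −0.36 and −0.05 (adjusted p = 0.847, 0.727 and 0.988), and the direction of Zeb2 and Snai2 turned without the 6 highest tumors (0.20 and 0.25).

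None of the 16 mesenchymal genes or 13 collagen and matrix genes was called. At an unadjusted p under 0.05, 4 of the 16 mesenchymal genes were lower and 1 higher, against 3.6% and 6.46% of all genes, and 12 of the 13 collagen and matrix genes had negative differences without reaching that p. Vim, the intermediate filament vimentin, had 1094 to 4606 RPKM in the high tumors (median 3291) and 2435 to 6043 in the low tumors (median 4021), so that it was abundant on both sides. Its difference was −0.58 (SE 0.22, adjusted p = 0.297). Cdh2, N-cadherin, had 0.597 to 25.8 RPKM against 0.301 to 26.7, with a difference of −0.47 (SE 0.62, adjusted p = 0.904). Pdgfra, a receptor of fibroblasts, had 8.48 to 90.3 RPKM (median 27.4) against 28.1 to 110 (median 58.5), a difference of −1.15 (SE 0.30, adjusted p = 0.0740). The collagen Col5a1 had a difference of −0.38 (adjusted p = 0.788). The median difference was −0.13 over the mesenchymal and −0.15 over the collagen list. It was −0.34 and −0.43 in the 6 highest tumors and turned to 0.02 and 0.09 in the other 6.

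**Figure D3:**
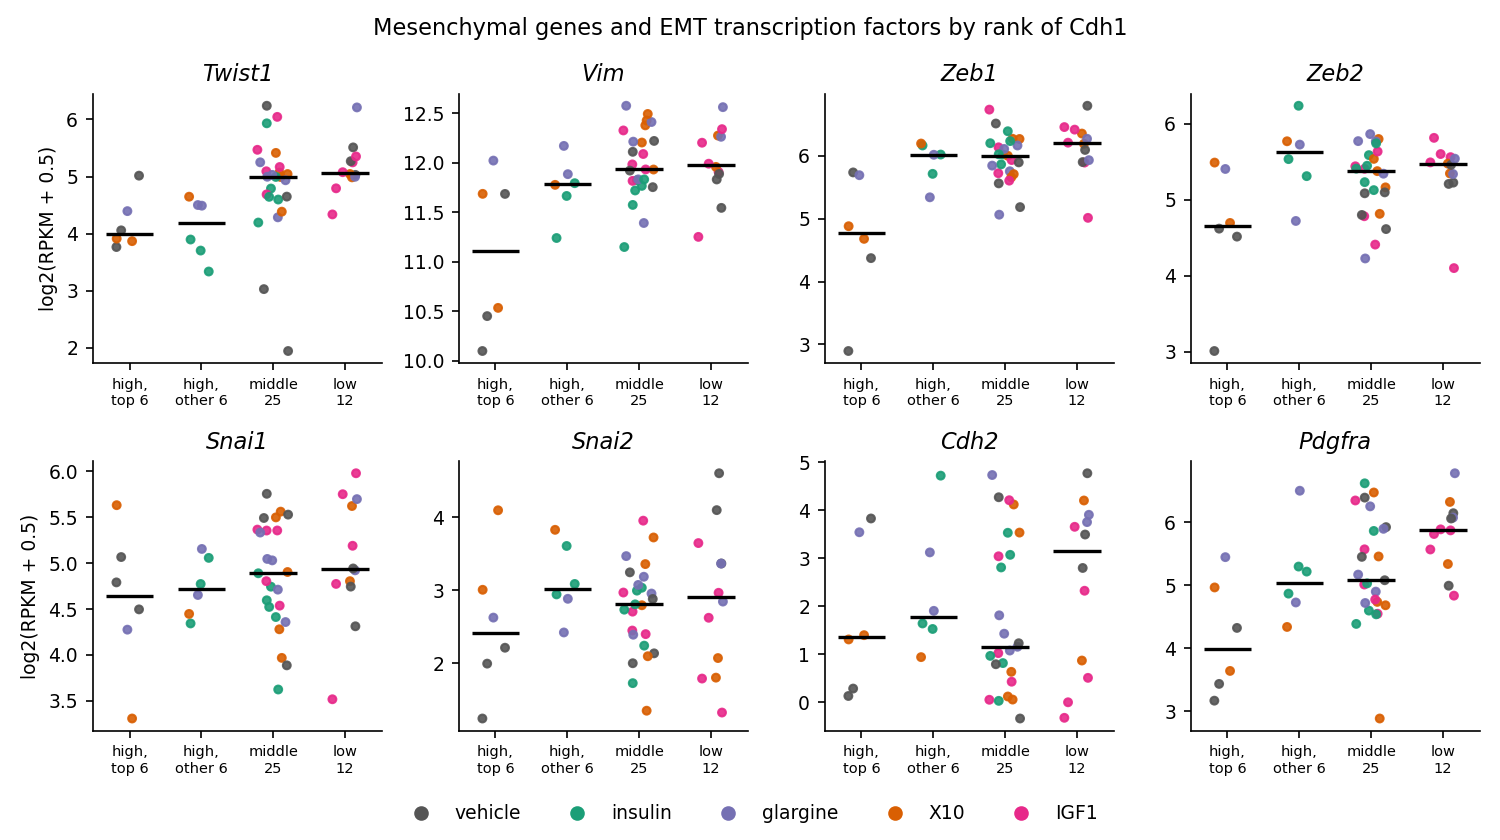
log2(RPKM + 0.5) of Twist1, Vim, Zeb1, Zeb2, Snai1, Snai2, Cdh2 and Pdgfra in the same 4 blocks of tumors, with 1 point per tumor coloured by treatment and a black line at the median. The medians of both parts of the high side lie under that of the low side for Twist1 (15.4, 18.2 and 32.9 RPKM), although single tumors overlap, while for Zeb1 and Vim the lowest values are in the 6 highest tumors.

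Beside Twist1, Dpy19l3, a mannosyltransferase, and Rgs17, a regulator of G-protein signaling, were lower. Dpy19l3 had 10.2 to 27.5 RPKM in the high tumors (median 21.3) and 15.0 to 56.4 in the low tumors (median 38.5), a difference of −0.84 (SE 0.19, adjusted p = 0.0417). Rgs17 had 0.041 to 2.76 RPKM (median 0.642) against 1.12 to 6.88 (median 2.65), a difference of −1.32 (SE 0.29, adjusted p = 0.0417). For both genes the sides overlapped. Leaving out 1 tumor ended the call of Rgs17 in 16 and of Dpy19l3 in 17 of 24 fits. The next 7 genes by p with negative differences, Fam131b, Rbpms2, Tenc1, Sdc2, Immp2l, Pdgfra and Cit, had adjusted p-values between 0.0526 and 0.0753 and were not called.

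Among the 10 higher genes with the smallest p, 5 were in none of the epithelial lists. Eya2, a transcriptional coactivator and phosphatase, had 5.18 to 33.3 RPKM in the high tumors (median 13.4) and 0.745 to 9.29 in the low tumors (median 2.00), a difference of 2.41 (SE 0.37, adjusted p = 0.00535). Chmp4c, a subunit of the ESCRT-III membrane scission complex, differed by 1.96 (SE 0.31), and Sh2d1b1, an adaptor of natural killer cell receptors, by 1.37 (SE 0.22). The microRNA gene Mir146b had no more than 2.29 RPKM in any high tumor and a mean of 0.309 outside the high side, so that it passed the minimum of 0.5 RPKM only through the tumors where it was high, and its difference of 1.23 (SE 0.21) is given as a description. 2010107G23Rik differed by 1.07 (SE 0.19).

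The higher genes differed in how the high side was made up. Over the 63 genes the median difference from the low tumors was 2.23 in the 6 highest tumors and 0.86 in the other 6, and in 14 genes the 6 highest exceeded every other of the 49 tumors. Over the tested epithelial members the medians were 2.71 and 0.50, and 55 of 76 were higher in the 6 highest tumors against the low side, where 2.77% of all genes were. A few called genes linked to leukocytes, chosen after their values were seen and not representative of the leukocyte markers below, had similar differences in both parts. Which cells expressed them was not tested. Csf2, the cytokine GM-CSF, differed by 1.71 and 1.63, Itgax, the integrin CD11c, by 1.04 and 0.93, and Tarm1, a receptor of myeloid cells, by 1.68 and 1.45. All 3 were called over the whole high side (limma adjusted p = 0.0239, 0.0417 and 0.0417). Leaving out 1 tumor ended the call of Csf2 in 1, of Itgax in 14 and of Tarm1 in 15 of 24 fits. Itgax had 5.85 to 24.3 RPKM in the high and 3.87 to 11.5 in the low tumors. Lcn2, a secreted iron-binding protein of inflamed epithelium and neutrophils, had 196 to 1674 RPKM in the 6 highest tumors, 2.91 to 234 in the other 6 and 2.56 to 41.8 in the low tumors.

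None of 12 leukocyte, 8 endothelial, 7 adipocyte, 10 muscle, 2 skin and 9 salivary markers tested was called. Of all genes, 0.377% were higher and 0.0179% lower. The summed RPKM of the 12 leukocyte markers was 240 to 1194 in the high (median 363) and 203 to 641 in the low tumors (median 428). Of these markers 9 had a positive and 3 a negative difference, Cd68, of macrophages, being at −0.67 (unadjusted p = 0.0304), and S100a8, of neutrophils, differed by 2.11 in the 6 highest and −0.19 in the other 6 tumors. The sum of the 8 endothelial markers was 148 to 225 (median 171) and 128.4 to 240.5 (median 196). The sum of the 10 muscle markers was 6.60 to 3087 (median 14.0) and 6.55 to 2405 (median 15.3), and that of the 8 adipocyte markers 23.0 to 546 (median 74.4) and 25.3 to 291 (median 96.2). The 10 skin markers summed to 1.32 to 49.7 in the high and 1.28 to 3.28 in the low tumors, the highest being X10_105. Of that sum 41.8 came from Krtdap, a gene of differentiating skin keratinocytes, which had at most 0.439 RPKM in any other high tumor, while Krt1, Krt2 and Flg were near 0. The 11 salivary gland markers summed to 631 in insulin_14 and to no more than 2.00 in any low tumor. With the muscle, fat, leukocyte and endothelium scores in the fit 18 genes were higher and none lower, Twist1 among those lost, and with the skin score 15 were higher and 1 lower. The part of these cell types in the differences was otherwise not tested.

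**Figure D4:**
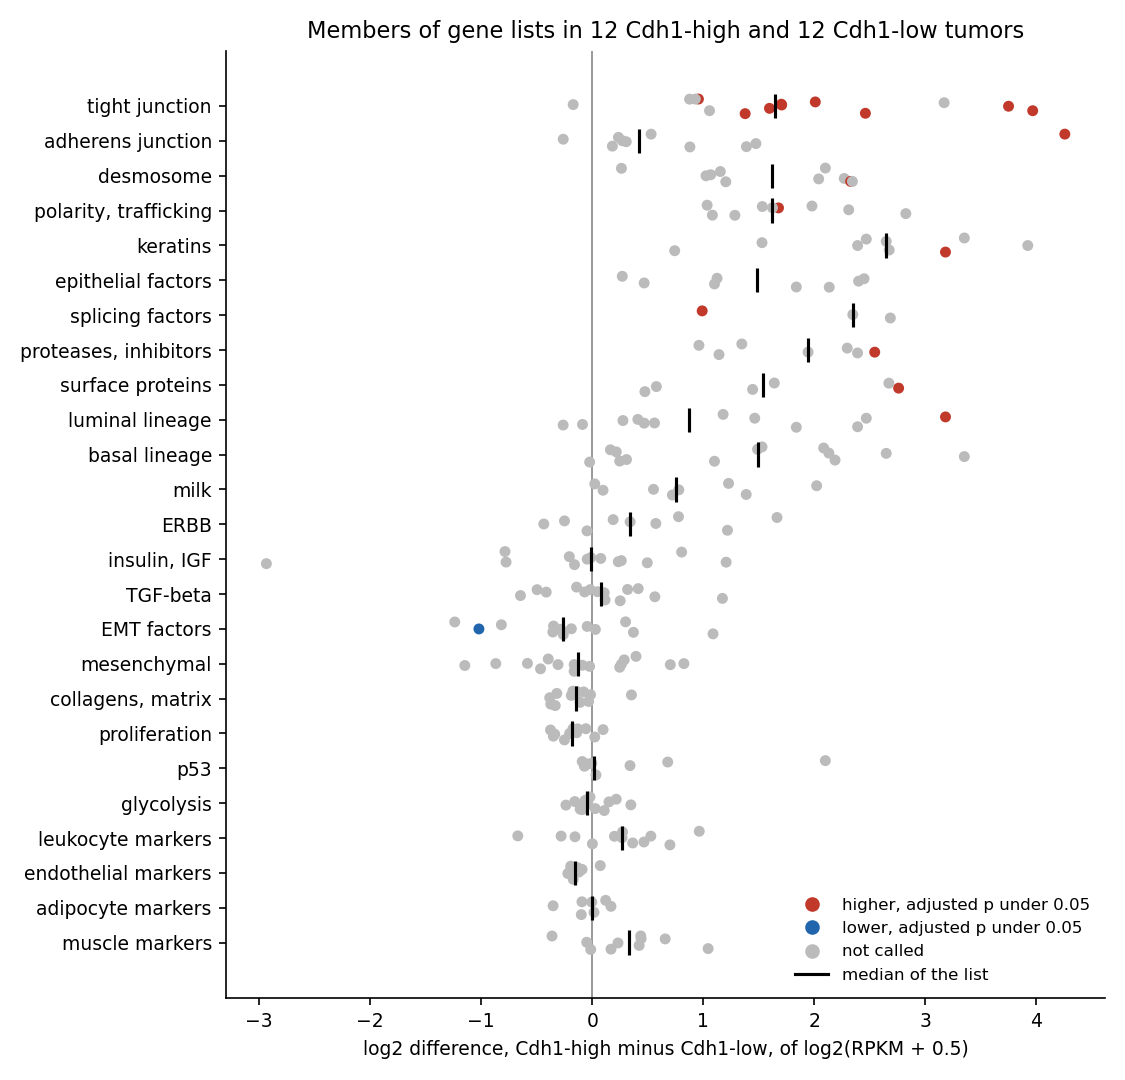
Difference between 12 Cdh1-high and 12 Cdh1-low tumors in log2(RPKM + 0.5) for the tested members of 25 gene lists, with 1 point per gene, red for higher, blue for lower and grey for not called, and a black line at the median of the list. The medians are 1.65 for the tight junction and 2.65 for the keratins, but 0.42 for the adherens junction, and they are −0.26 for the EMT factors, −0.15 for the collagens and 0.33 for the muscle markers.

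Keratin and lineage genes are described here by single tumors, and those named were chosen after their values were seen. The basal keratin Krt5 had 1036 RPKM in X10_105 and no more than 5.22 in the other 11 high tumors, and X10_105 also had the highest Krt14 (2587 RPKM), Krt17 (762) and Trp63 (29.1), a factor of basal cells. These genes are also expressed in skin, and X10_105 was the tumor with the high Krtdap; the part of skin in these values was not tested. Vehicle_174 had the highest Krt7 (3810 RPKM), Krt8 (1616) and Krt18 (907), along with Krt14 at 2164. Elf5, a factor of luminal progenitors, was highest in vehicle_182 (43.8 RPKM) and glargine_63 (28.7). The milk casein gene Csn3 was highest in vehicle_182 (241 RPKM) and glargine_69 (213) and at 0.950 in vehicle_174. Between the sides 1 of 12 luminal, 0 of 13 basal and 0 of 8 milk genes were called. Most of their differences were nevertheless positive, in 10 of 12 luminal, 12 of 13 basal and 8 of 8 milk genes, with medians of 0.87, 1.49 and 0.75. At an unadjusted p under 0.05, 6 luminal, 7 basal and 3 milk genes were higher and none lower, where 6.46% of all genes were higher. In the 6 highest tumors against the low side 6 luminal, 6 basal and 1 milk gene were higher, where 2.77% of all genes were. The luminal gene called between the sides was Krt18, and Krt17 had the largest difference of the basal list (3.35, SE 0.98, adjusted p = 0.126).

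**Figure D5:**
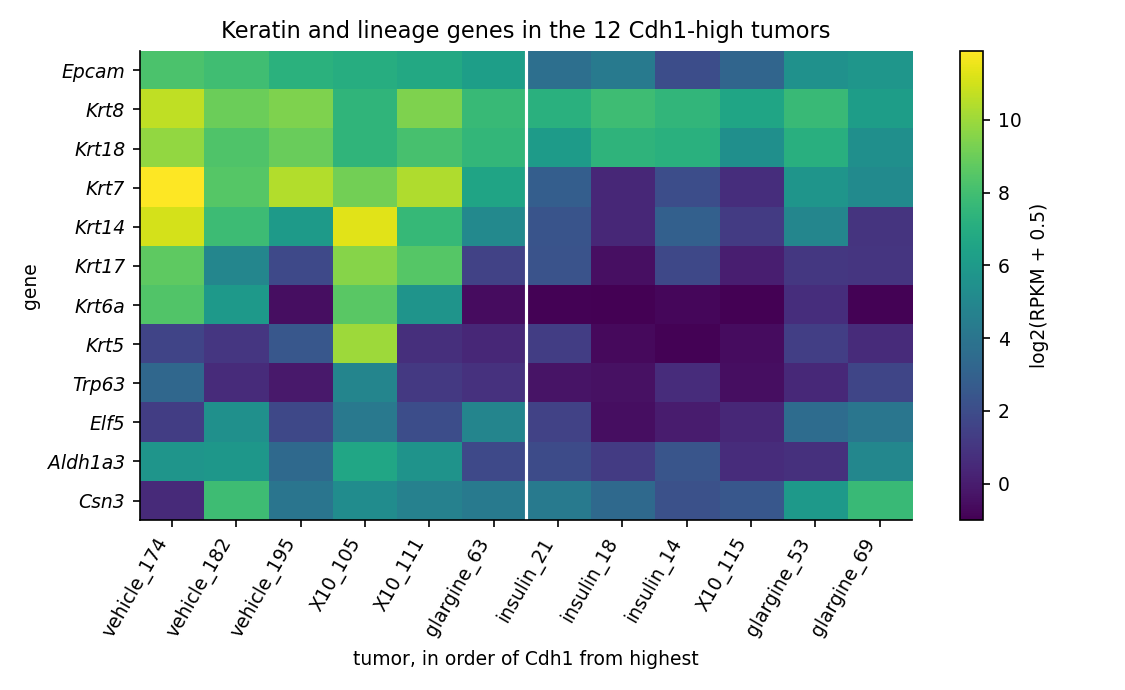
log2(RPKM + 0.5) of 12 keratin and lineage genes in the 12 Cdh1-high tumors, in order of Cdh1, with a white line after the 6 highest. Krt5 is bright in X10_105 alone (1036 RPKM), and Krt7 is at 92.8 RPKM or more in the 6 highest and at 51.5 or less in the other 6.

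Genes of the treatments' own receptors did not differ between the sides past the threshold. Igf1r had 4.04 to 12.1 RPKM in the high tumors (median 6.26) and 3.25 to 8.23 in the low tumors (median 5.37), a difference of 0.23 (SE 0.16, adjusted p = 0.702). Insr had 4.32 to 12.2 against 4.03 to 10.5 RPKM, a difference of 0.08 (SE 0.16, adjusted p = 0.955). None of the 13 insulin and IGF genes was called. Igf2 varied most, from 0.459 to 1449 RPKM in the high and from 1.31 to 4311 in the low tumors, and its difference of −2.94 had an SE of 1.44 (adjusted p = 0.504). None of 12 proliferation, 8 p53, 14 glycolysis, 14 TGF-beta and 9 ERBB genes was called. Of all genes, 0.377% were higher and 0.0179% lower, so that a list of this size would mostly hold none. At an unadjusted p under 0.05, 3 ERBB, 2 p53 and 2 TGF-beta genes were higher, against 6.46% of all genes. Lower were 2 TGF-beta genes and 1 proliferation gene, against 3.6%. In the 6 highest tumors against the low side 3 ERBB, 1 p53 and 1 TGF-beta gene were higher, where 2.77% of all genes were. The members with the largest differences were Aurka (−0.38), Perp (2.10), Pfkp (0.35), Ctgf (1.17) and Erbb3 (1.66, SE 0.39, limma adjusted p = 0.0562).

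The middle tumors had entered neither side. In them no gene had a slope on log2 Cdh1 with an adjusted p under 0.05 in limma, while 3.78% of genes had a positive and 5.49% a negative slope at an unadjusted p under 0.05. Of the 63 higher genes, 38 (60.3%) had a positive slope, against 39.6% of all genes, and 6 of these 38 were under an unadjusted p of 0.05. They were Sh2d1b1, Csf2, F11r, Itgax, Aldoc and Tarm1. Of the higher genes with a negative slope 1 was under that p, Shroom3 (−0.80, p = 0.0277). The slope of Epcam was 0.64 (p = 0.174) and that of Krt18 0.32 (p = 0.557). The 5 genes most like Cdh1 over 49 tumors by Spearman's rho were Epcam (0.750), Lsr (0.733), Fam179a (0.704), Sh2d1b1 (0.688) and 1600029D21Rik (0.665). Fam179a had a mean of 0.412 RPKM outside the high side and passed the minimum only through it, so that its rho is a description. Over the 25 middle tumors the rho of the 5 genes was 0.257, 0.233, 0.295, 0.480 and 0.252. The choice of genes by the first rho and the narrower range of Cdh1 in the middle tumors both favour lower values there, so the drop is no result.

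Treatment was not balanced over the sides, and 3 treatments had tumors on both. Between the 3 high and 3 low vehicle tumors Epcam differed by 6.67, between the 3 high and 2 low glargine tumors by 5.03, and between the 3 high and 2 low X10 tumors by 3.53. Twist1 differed by −0.99, −1.14 and −0.87 in the same order. Krt18 differed by 5.03, 2.26 and 2.20, and its values overlapped between the sides within X10. Snai2 went in opposite directions, with −2.20 in vehicle and 1.71 in X10. These differences of 2 or 3 tumors were not tested. For IGF1 and insulin no such value could be had, since each was on 1 side only. With treatment as a covariate, 291 genes were higher and 48 lower. A further fit took the 2 highest and 2 lowest tumors of each treatment, which balances treatment over the sides but also changes the tumors compared. The middle tumors IGF1_135 (8.59 RPKM of Cdh1) and IGF1_128 (7.46) were then on the high side. The middle tumors insulin_15 (3.88) and insulin_37 (3.56) were on the low side, and vehicle_195 (52.0) was left out. In this fit limma called no gene, and 1165 were under an unadjusted p of 0.05. Whether balance or the change of tumors lowered the count was not tested.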

How the data were processed

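RNA of 50 mammary gland tumors was Poly-A selected and sequenced by the authors on the Ion Proton. Per the submitters' processing notes, reads were aligned to GRCm38 with TopHat2 2.0.10 and Bowtie2, counted with HTSeq 0.6.1 and compared with DESeq2 1.2.10. The authors deposited RPKM values per gene, which are reads normalized to library size and gene length. The DESeq2 analysis was not repeated, since the values are not counts. Within a gene the values are multiples of a common step (within 0.00051 RPKM), from which library sizes of 26.7 to 51.9 M reads were recovered. In each tumor at least 97.28% of values of up to 60 scaled reads equalled a whole number of reads times the scaling factor, rounded to the nearest scaled read; reads of Cdh1 were between 120 and 15203 per tumor.

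Of 37701 genes, the 16733 with a mean RPKM of at least 0.5 over all 50 tumors were tested on log2(RPKM + 0.5) with limma 3.58.1 in R 4.3.3, with an intensity trend, 12 against 12 tumors. P-values were adjusted by Benjamini-Hochberg over all tested genes but Cdh1, and an adjusted p under 0.05 was called. In the 25 middle tumors the slope on log2(Cdh1 RPKM + 0.5) was fitted. In simulated data for the 12 against 12 comparison (16733 genes, 200 changed), 84% of genes changed by a log2 of 1 and 94% of those changed by 2 were recovered, with 6 false calls. The simulated noise was independent between genes and had 1 spread per gene for both sides. Only genes with a mean of at least 1 RPKM were changed. The split within the real high side was not simulated, so these shares need not hold for the real data. Gene positions are from GENCODE M21.

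Named genes were 15 given in all cases, from each list up to 4 called members with the largest difference or else the member with the largest difference, the 10 higher and 10 lower genes with the smallest p, and the 5 genes most like Cdh1. The tumors, the 28 gene lists and the tests were chosen with earlier results of these data known. Alternatives concerned the pseudocount, the filter, normalization, covariates, the size of the sides and single tumors. The values of 1 called gene are not reported here.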

Additional observations from a re-analysis of the deposited data

Results flagged for a closer look

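In 2 treatments the highest tumor was far from the others in Cdh1, the gene by which the tumors were ranked, so that the gaps are given as a description with no test. Among the 10 vehicle tumors the gap between vehicle_174 and the next was 0.474 of the whole range of RPKM, and among the 10 glargine tumors the gap below glargine_63 was 0.673 of the range. On the log2(RPKM + 0.5) scale, tried after seeing the data, the gaps were 0.154 and 0.335 of the range. Both tumors are among the 6 highest of the Cdh1-high side. The tumor insulin_13, which was not ranked, had a summed RPKM of 123831 over 11 salivary gland genes, against 631 in insulin_14 and 8.40 in the next tumor, IGF1_145.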

How the results depend on the processing

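The count of 66 genes kept within 1.5 times under pseudocounts of 0.1 (81) and 1 (50), upper quartile scaling (68), no intensity trend (67) and, added after seeing the data, without pseudogenes (71). With insulin_13 kept it was ranked in the middle, so that the 24 tumors compared and the count of 66 were the same by construction. The count was 12 with no filter on low values, 14 with the minimum mean raised to 5 RPKM, 26 with quantile normalization, 18 with muscle, fat, leukocyte and endothelium scores, 16 with the skin score, 21 with 16 tumors on each side and 0 with the 2 highest and 2 lowest of each treatment (1165 at an unadjusted p under 0.05). It was 339 with treatment as a covariate, 241 with library size, 169 with 8 tumors on each side and 969 as a slope over 49 tumors. Added after seeing the data were the fits without the 6 highest tumors (0 genes), without the other 6 of the high side (551) and with limma voom on recovered reads (36), and those without 1 tumor each (18 to 181). The cause of these moves was not tested, beyond the fewer tumors or genes in some fits. Epcam kept an adjusted p under 0.05 in 18 of 20 alternatives and Twist1 in 16 of 20.

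Members of the lists called were 17 in all, 45 with treatment as a covariate, 9 with quantile normalization, 35 with 8 and 5 with 16 tumors on each side, 7 with the marker scores and 0 without the 6 highest tumors (34 at an unadjusted p under 0.05). The chi-square of treatments was 10.5 (p = 0.0283, two-sided permutation test) with 16 tumors on each side. In the middle tumors the count stayed at 0 under pseudocounts of 0.1 and 1, treatment as a covariate and a minimum mean of 5 RPKM, the alternatives run there (1076 to 1562 genes at an unadjusted p under 0.05). Among the 57 named genes, directions turned only for genes that were not called. Without the 6 highest tumors these were S100a8 (−0.19), Col5a1 (0.0044), Krtdap (−0.11), Zeb2 (0.20), Lep (0.0465) and Snai2 (0.25). Others were Igf1r (−0.0075) with 2 highest and 2 lowest of each treatment, Insr (−0.10) with treatment as a covariate and Snai2 (0.22) with library size.
Without 1 tumor each, the difference of Krtdap was −0.0049 to 0.58, of Insr −0.0023 to 0.15 and of Snai2 −0.19 to 0.11. No paired analysis was possible because the numbers in the titles name single tumors and are not shared between treatments or sides. Depth limits the genes near 0.5 RPKM.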
